A study of Mus musculus with 3 samples.

Results

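White-like adipocyte nuclei of mouse interscapular brown adipose tissue (BAT) are described here: 688 of the 36281 nuclei kept from 3 single-nucleus RNA libraries. They were chosen by their counts of unique molecular identifiers (UMIs, 1 per captured transcript molecule). A member had a sum of at least 3 UMIs over the adipocyte genes Adipoq, Plin1, Pparg, Cidea and Ppara, and a sum of at least 2 UMIs over the white adipocyte genes Slc7a10, Trhde, Nnat and Retn. Its adipocyte sum was also at least 4 times its sum of endothelial genes and of pericyte genes. Because the selection used these measured values, the levels of its 19 genes are a description, with no test. The reference was 10968 brown adipocyte (BA) nuclei with at least 4 adipocyte UMIs, no UMI of the 4 white markers and the same limits on vessel genes.

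The study asked how cells of BAT signal to BAs, and the libraries came from wild-type adult C57Bl6 mice, which the study's methods give as C57BL/6J. Groups follow these labels, although the header of the untreated table names its run nC and that of the denervated table nKO, and what nKO stands for is not given in the sources used here. One library was untreated, 1 was labelled as a sham operation and 1 as denervation, in which the nerves to the BAT were cut. Mice were 8 weeks old, and each of the untreated and denervated experiments used 20 of them, by the methods and legends. Denervation was on the left side, with sampling 3 days later. Its diagram includes tamoxifen. The side and day of the sham operation are not given in the sources used here. A legend for other mice calls the intact opposite lobe sham-operated, and also names a separate sham-operated group. Whether the sham library came from the opposite lobe of the denervated mice or from other mice is not given. Nuclei came from the floating layer of digested tissue, and a library is a single sample of its condition. Differences between conditions therefore have no replicate check, and their intervals cover counting error only.

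White adipocytes store energy as triglyceride in a single large droplet and release it by lipolysis, and they secrete hormones such as leptin, adipsin and resistin. Brown adipocytes hold many small droplets and many mitochondria, and uncoupling protein 1 (Ucp1) lets these mitochondria turn fuel into heat. Sympathetic nerves switch this on through beta-adrenergic receptors. White adipocytes are found within and around BAT depots. Of the 4 markers, Slc7a10 encodes a carrier of small neutral amino acids, Trhde an enzyme that cleaves thyrotropin-releasing hormone, Nnat the membrane proteolipid neuronatin and Retn the hormone resistin.

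The members numbered 73 in the untreated, 425 in the sham and 190 in the denervated library. They made up 1.62% of adipocyte nuclei in the untreated library (exact Clopper-Pearson 95% interval 1.27 to 2.03%), 11.2% in the sham library (10.2 to 12.2%) and 3.91% in the denervated library (3.38 to 4.49%). The sham share thus lay above both others beyond counting error, with 1 library behind each value. The same 2 marker UMIs were found in 0.213%, 1.66% and 0.834% of endothelial nuclei, a type that should lack these genes, at median depths of 740, 608.5 and 457 UMIs. After nuclei with at least 800 UMIs were thinned to that number, the shares were 0.911%, 6.97% and 3.72% of adipocyte nuclei against 0.391%, 2.09% and 3.05% of endothelial nuclei. This left out 233, 377 and 1586 shallower adipocyte nuclei and 2442, 2672 and 1155 endothelial nuclei. In the denervated library, where 164 endothelial nuclei were deep enough, the thinned endothelial interval (0.997 to 6.97%) covered the adipocyte share.

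**Figure D1:**
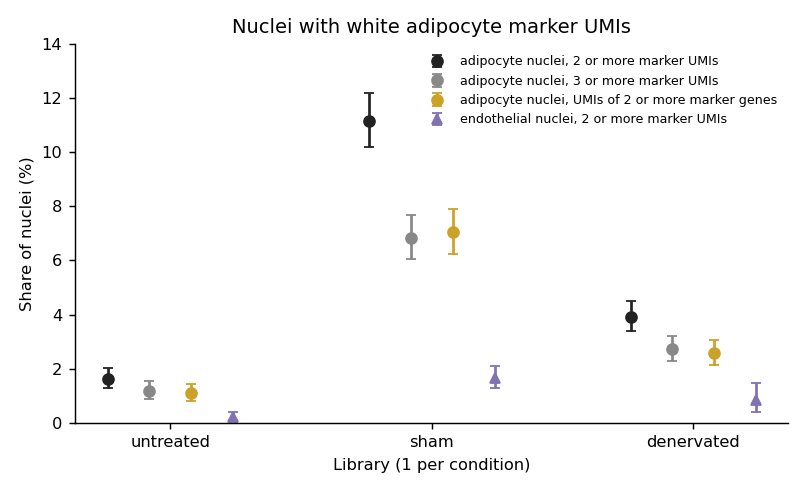
Share of nuclei with white marker UMIs (%, y axis) in each library (x axis, 1 library per condition), with exact 95% intervals for counting error. Adipocyte nuclei are drawn under 3 rules and endothelial nuclei under the first; the sham library is highest under each rule, at 11.2%, 6.83% and 7.04% of adipocyte nuclei.

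The members held a median of 1625, 1431 and 1215 UMIs in the untreated, sham and denervated libraries, against 1869.5, 1459 and 1000.0 in BA nuclei. Mitochondrial genes took 3.12%, 6.67% and 2.14% of their UMIs, close to the 3.12%, 6.34% and 1.85% of BA nuclei. In all, the white-like sums held 126078, 701391 and 239167 UMIs, so the untreated values rest on the fewest molecules. Of all barcodes in the libraries, before any filter, 251 to 278 were shared between pairs of libraries, and no barcode was a member in more than 1 library. Doublets were not called beyond the limits on vessel genes, and free RNA was not subtracted.

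Markers of other cells were summed as CPM, the UMIs of a gene or list per 1000000 UMIs of the class, and some lists were higher in the members than in BA nuclei. The rule itself limited 6 of the 14 endothelial genes and 4 of the 11 pericyte and smooth muscle genes in both classes. Without those, the endothelial genes gave 333, 229.5 and 293 CPM in white-like nuclei of the untreated, sham and denervated libraries and 282, 239.7 and 304 in BA nuclei. The pericyte and smooth muscle genes gave 135, 221 and 247 CPM against 143, 218 and 132, so the denervated members were higher. Immune genes gave 39.7, 34.2 and 66.9 CPM against 21.7, 24.5 and 39.2, from 5, 24 and 16 UMIs over 8 genes in the members. Mesothelial genes gave 7.93, 8.55 and 4.18 CPM against 7.08, 9.18 and 9.18. The 10 fibroblast and progenitor genes reached 127, 175 and 234 CPM against 30.2, 33.7 and 59.4 CPM in BA nuclei. Among these, Lum and Dpp4 were at 0 in all 3 white-like sums, Pdgfra was at 0 in the untreated and denervated sums, and Col3a1, a fibrillar collagen, had 79.3, 121 and 96.2 CPM against 6.70, 13.4 and 13.5 in BA nuclei and was called higher in the test described below (log2 ratio 3.30 ± 0.31). Schwann cell genes summed to 167, 202 and 159 CPM against 63.9, 54.4 and 77.3. Scn7a, a sodium channel, made up most of this and was called higher (2.55 ± 0.23), while Sox10 was at 0. The 6 skeletal muscle genes summed to 15.9, 128 and 20.9 CPM against 12.1, 14.1 and 19.3, so the sham members stood out. The muscle actin Acta1 had 2, 86 and 4 UMIs in the members, those of the sham library in 26 nuclei, and was called higher (3.75 ± 0.56). The part of other cells in the results below was not tested.

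The 4 markers differed in level between the libraries, and none of them was seen in every member. Slc7a10 (chromosome 7 from 35186385 to 35201114, GRCm38 in GENCODE vM21) had 714, 801 and 1146 CPM in the untreated, sham and denervated libraries. Nnat (chromosome 2 from 157560078 to 157562522) had 809, 1168 and 849 CPM and was found in 30.1%, 33.2% and 30.5% of members. It lies within Blcap on the opposite strand, so the origin of its reads depends on strand-aware counting, which is not stated in the sources used here. The same limit holds for Slc7a10, which overlaps Lrp3, and for Trhde, which overlaps 4930473D10Rik and Gm15723, each on the opposite strand. A single sham nucleus held 104 of the 819 sham Nnat UMIs. Retn (chromosome 8 from 3655770 to 3660110) had 611, 837 and 564 CPM, and Trhde (chromosome 10 from 114398823 to 114802307) had 492, 164 and 690.

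The adipocyte genes of the rule, whose summed presence was fixed by the selection in both classes, are given as a description. Pparg, the master regulator of fat cell formation, had 2443, 1875 and 1940.1 CPM in white-like nuclei and 2336, 1924 and 3116 in BA nuclei. Adipoq, which encodes adiponectin, had 269.7, 543 and 276 CPM in white-like nuclei and 212, 366 and 178 in BA nuclei. Cidea, a droplet protein typical of BAs, had 635, 449 and 815 CPM in white-like nuclei and 1413, 1478 and 1841 in BA nuclei. Ppara, which controls genes of fatty acid burning, had 262, 580.3 and 443 CPM against 915, 1794 and 1650.2.

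Each white marker in turn was left out of the rule, and the nuclei were selected on the other 3. All 4 were chosen for the rule with earlier results of these data known. The level of the marker left out is therefore a description and not independent evidence. The marker left out was higher in the white-like nuclei than in BA nuclei in every library, for all 4 genes. Yet many of these white-like nuclei held no UMI of it. Slc7a10 was detected in 55.4%, 47.9% and 55.6% of them, and Trhde in 37.5%, 13.4% and 31.0%. Nnat was detected in 13.6%, 22.0% and 19.5%, and Retn in 36.2%, 46.2% and 25.3%. In BA nuclei detection was at most 8.82%. The intervals below do not cover the clustering of UMIs in few nuclei. For Slc7a10 the levels were 587, 589 and 899 CPM in white-like nuclei and 3.27, 47.2 and 28.0 in BA nuclei, and the log2 ratios were 7.49 (95% interval for counting error 6.79 to 8.22), 3.64 (3.37 to 3.90) and 5.01 (4.65 to 5.37). Trhde gave log2 ratios of 5.88 (5.28 to 6.47), 3.57 (3.003 to 4.16) and 4.53 (4.08 to 4.98). For Nnat they were 6.21 (5.64 to 6.78), 4.45 (4.21 to 4.69) and 4.42 (4.04 to 4.80). Retn had the smallest, at 4.95 (4.37 to 5.51), 2.65 (2.41 to 2.88) and 3.18 (2.72 to 3.62). For each of the 4 genes the ratio was largest in the untreated library, except that with BA nuclei matched on UMIs Nnat was at 5.75 in the untreated and 5.84 in the sham library.

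**Figure D2:**
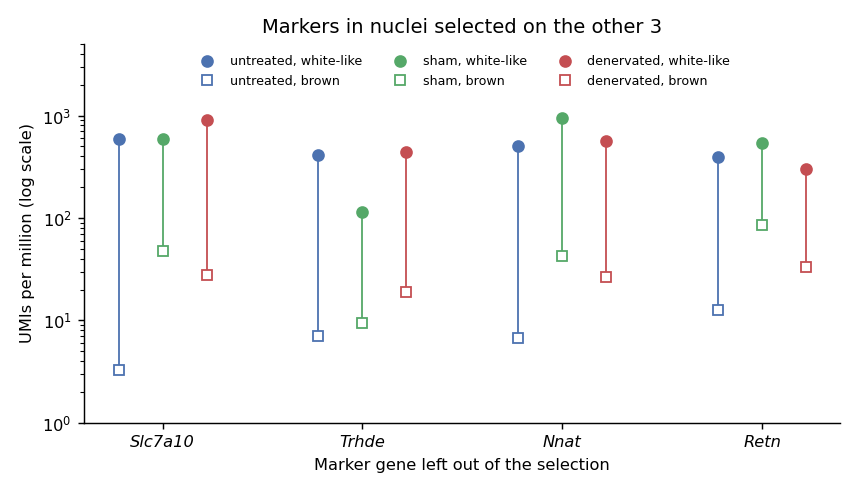
CPM (y axis, log scale) of each marker (x axis) in nuclei selected on the other 3 markers, in white-like nuclei (filled circles) and BA nuclei (open squares) of each library, joined by a line. All 12 filled circles lie above their squares, by log2 ratios of 2.65 to 7.49.

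The members were not uniform. The thermogenic genes, a list of 25 gene symbols of heat production and BA identity, were lower in nuclei with more marker UMIs. The rule did not use them. Gyk is an older symbol of Gk, and both are in the list. In the denervated library the list summed to 7884 CPM in nuclei with no marker UMI, 6856 in nuclei with 1, 5619 in those with 2, 3638 in those with 3 or 4, and 2789 in those with at least 5 (95% interval 2391 to 3234). Untreated nuclei gave 7541, 7542, 6530 (5715 to 7428), 4789 and 4101 CPM over the same steps. Sham nuclei gave 7784, 7105, 6000.4, 5483 and 5637. The intervals of the last 2 steps overlapped in the sham and in the untreated library. Nuclei with 1 marker UMI, just outside the rule, numbered 178, 402 and 355, and members with exactly 2, just inside it, numbered 20, 165 and 58. Their thermogenic sums lay between those of the reference and of members with more markers, except for the untreated nuclei with 1 UMI, which matched the reference. Members with 3 adipocyte UMIs numbered 9, 31 and 38, and nuclei with 2, just outside, numbered 4, 36 and 56.

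**Figure D3:**
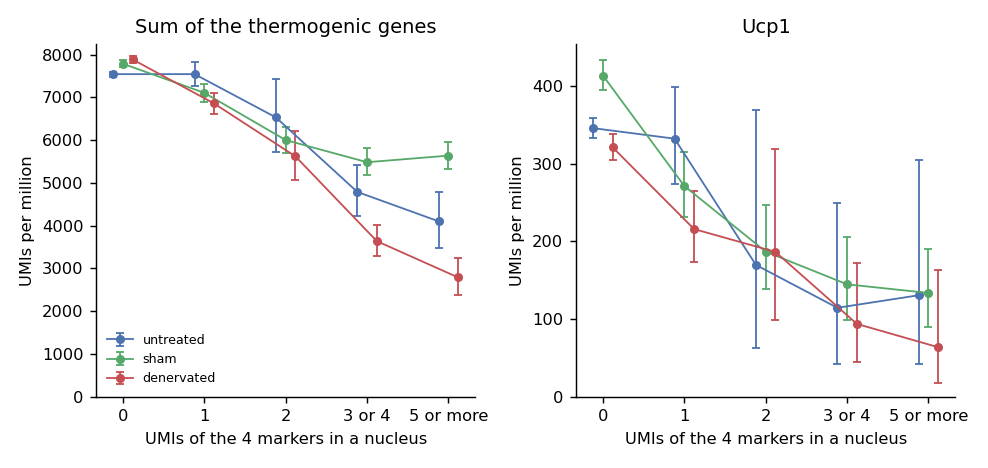
Summed CPM of the thermogenic genes (left, y axis) and of Ucp1 (right, y axis) by the number of UMIs of the 4 white markers in a nucleus (x axis), with exact 95% intervals, in each library. The denervated thermogenic sum falls from 7884 to 2789 CPM, and the sham sum levels off at 5483 and 5637 CPM.

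Genes outside the rule were then compared between white-like and BA nuclei. UMIs were summed per library and class, giving 3 pairs of sums, and tested with edgeR's quasi-likelihood method with the library as a block. Of 7345 genes with a mean of at least 20 CPM, 840 were higher in white-like nuclei (11.4%) and 524 were lower (7.13%) at an adjusted p under 0.05, and 790 and 524 of them had the same direction in every library. Without the denervated library the counts were 535 and 254, and with DESeq2 in place of edgeR 680 and 294. Among called genes, 90 were up by at least 8-fold and none was down by as much. A gene entered by its mean over both classes, so it could enter through 1 class alone. The white-like sums were the smaller ones, which limits how large a fall can be measured. The part of these limits in this difference was not tested. With scaling by total UMIs alone, which shifts the median log2 ratio of all genes from -0.03 to -0.18, the split was 691 higher and 864 lower, or 44.4% higher in place of 61.6%. Log2 ratios below are edgeR's, and ± is 1 SE derived from its test statistic, with a spread moderated over all genes. It is not the spread of a gene's own 3 pairs. The p-values rest on 3 pairs from libraries that differ in treatment, so they do not measure agreement between replicates of a condition.

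A fatty acid receptor, a collagen and a growth factor receptor were among the largest differences. Ffar2, a receptor for short-chain fatty acids, had 79.3, 159.7 and 105 CPM in white-like nuclei of the untreated, sham and denervated libraries and 0.253, 6.36 and 2.52 in BA nuclei (log2 ratio 5.52 ± 0.44 SE, adjusted p = 1.16e-08). It was detected in 7 of 73, 77 of 425 and 20 of 190 members. Col15a1, a basement membrane collagen, had 206, 69.9 and 305 CPM against 3.92, 5.42 and 12.6 (log2 ratio 4.80 ± 0.33 SE, adjusted p = 2.37e-09). Egfr, the receptor of epidermal growth factor, had 143, 54.2 and 301 CPM against 2.78, 4.71 and 11.5 (log2 ratio 4.76 ± 0.36 SE, adjusted p = 6.25e-09). In each of these genes every white-like value exceeded every BA value. Endothelial nuclei had 27.4, 40.1 and 308 CPM of Col15a1, as much as white-like nuclei in the denervated library. Pericyte nuclei had 51.9, 63.6 and 43.9 CPM of Egfr, which in the sham library was above the members' 54.2.

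Others of the 10 largest were Chst1, a sulfotransferase of keratan sulfate (log2 ratio 4.74 ± 0.35), Lgals3, the lectin galectin-3 (4.70 ± 0.51), Adam33, a membrane metalloprotease (4.67 ± 0.56), and Clmp, an adhesion protein (4.66 ± 0.34). Chst1 was also found in pericyte nuclei, at 207, 118 and 293 CPM against 87.2, 208 and 66.9 in the members. Cxcl1, a chemokine that draws neutrophils, had 39.7, 57.0 and 1062 CPM against 0.379, 4.47 and 37.2 (log2 ratio 4.80 ± 0.32 SE, adjusted p = 1.43e-09) and is taken up again with denervation. The noncoding RNA 1200007C13Rik had 159, 88.4 and 92.0 CPM against 1.77, 10.4 and 1.15, and 17 of its 20 untreated UMIs came from 1 nucleus. Gm15723 (4.83 ± 0.65) is antisense to Trhde, a gene of the rule, and the reads of an antisense pair cannot be told apart without strand, so its value is uncertain.

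Genes lower in white-like nuclei differed by less. Shtn1, a cytoskeletal regulator known from neurons, had 47.6, 24.2 and 62.7 CPM against 259, 127 and 312 (log2 ratio -2.21 ± 0.24 SE, adjusted p = 6.14e-07). Col27a1, a fibrillar collagen, had 95.2, 123 and 179.8 CPM against 588, 381 and 869.9 (log2 ratio -1.92 ± 0.21 SE, adjusted p = 1.10e-06). Ptpn18, a tyrosine phosphatase, had the lowest ratio at -2.34 ± 0.51, from 0, 4 and 3 white-like UMIs. Pm20d1, an enzyme that makes N-acyl amino acids able to uncouple mitochondria, had 23.8, 1.43 and 12.5 CPM against 43.1, 36.5 and 41.1 (log2 ratio -2.25 ± 0.55 SE, adjusted p = 0.00559), with 3, 1 and 3 UMIs behind the white-like values, and lost its call without the sham library. Ptgds, a prostaglandin D synthase, was also lower (-2.15 ± 0.36), as were Cabcoco1 (-2.16 ± 0.36), Pbld1 (-1.999 ± 0.46), Osbpl6 (-1.96 ± 0.50) and Rhobtb2 (-1.95 ± 0.48). Osbpl6 lost its call without the sham library, and Rhobtb2 with nuclei that had no vessel UMI. Gm17276 (-2.004 ± 0.27) is antisense to Notch3, a pericyte gene of the rule, and is uncertain for that reason.

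Most genes of heat production that could be tested were lower in white-like nuclei. Of the 25 symbols of the thermogenic list 19 could be tested, and 12 were lower, 2 were higher and 5 did not pass. Over all genes tested, 7.13% were lower and 11.4% higher. The median log2 ratio of the list was -0.90, against -0.03 over all genes tested. Ucp1 (chromosome 8 from 83290352 to 83298452) had 135, 157 and 113 CPM in white-like nuclei of the untreated, sham and denervated libraries and 346, 413 and 321 in BA nuclei (log2 ratio -1.27 ± 0.20 SE, adjusted p = 6.65e-05). No white-like value reached the lowest BA value. The remaining Ucp1 signal came from 17, 110 and 27 UMIs, and the part of free RNA in it was not tested.

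Other lower members of this list included Esrrg, an orphan nuclear receptor of mitochondrial genes (log2 ratio -1.53 ± 0.19 SE, adjusted p = 5.51e-06), Pank1, which starts coenzyme A synthesis (log2 ratio -1.46 ± 0.19 SE, adjusted p = 9.61e-06), and Slc27a2, a fatty acid transporter (-1.45 ± 0.38, with 0, 34 and 1 UMIs). Prdm16, a regulator of BA identity, had 198, 119.8 and 213 CPM against 352, 312 and 444 (log2 ratio -0.97 ± 0.19 SE, adjusted p = 0.00109). The 2 exceptions were Lhx8, a homeobox gene, with 87.2, 74.1 and 41.8 CPM against 19.9, 35.1 and 10.1 (log2 ratio 1.74 ± 0.34 SE, adjusted p = 7.11e-04), and Adrb3, the beta 3-adrenergic receptor. Adrb3 had 1769, 2994 and 882 CPM against 578, 1728 and 608 (log2 ratio 1.13 ± 0.20 SE, adjusted p = 2.89e-04), and its value was higher in white-like nuclei within each library. The mitochondrial subunits Cox8b (-0.46 ± 0.21) and Cox7a1 (-0.34 ± 0.22) did not pass the test.

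Most fatty acid oxidation genes were lower. Of 13 tested, 11 were lower, 1 was higher and 1 did not pass, and the median was -0.85. Over all genes tested, 7.13% were lower and 11.4% higher. With BA nuclei matched on UMIs 8 of the 13 were lower, against 358 of all 7330 genes tested. With DESeq2 8 were also lower, against 294 of all 7345. Acsl5, which activates fatty acids, had 87.2, 35.6 and 113 CPM against 511, 99.8 and 472 (log2 ratio -1.83 ± 0.23 SE, adjusted p = 5.85e-06). Lower too were Hadhb, a subunit of the trifunctional enzyme of beta-oxidation (-1.19 ± 0.19), and the acyl-CoA dehydrogenase genes Acadvl (-1.16 ± 0.20) and Acadm (-1.13 ± 0.19). Acsl1, a paralog of Acsl5 in the same reaction, went the other way, with 1674, 2616 and 1472 CPM against 748, 1524 and 692 (log2 ratio 1.16 ± 0.18 SE, adjusted p = 5.55e-05). Decr1 was called in the main comparison (-0.64 ± 0.20) but not when any of the libraries was left out.

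Of 14 glucose and glycogen genes 7 were lower and 6 did not pass, with 1 higher and a median of -0.84. The shares over all genes tested were 7.13% lower and 11.4% higher. Ppp1r3b, which brings a phosphatase to glycogen, had 2229, 516 and 962 CPM against 4804, 1539 and 3184 (log2 ratio -1.32 ± 0.18 SE, adjusted p = 1.94e-05). Pdha1 of the pyruvate dehydrogenase complex (-1.06 ± 0.21), its kinase Pdk4 (-1.01 ± 0.20) and phosphofructokinase Pfkl (-1.001 ± 0.21) were lower. Pfkfb3, which makes the activator of glycolysis fructose 2,6-bisphosphate, was higher (0.83 ± 0.18).

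Among 15 fatty acid synthesis genes 3 were lower and none was higher, against 7.13% lower and 11.4% higher over all genes tested. The median of the 15 was -0.43. The lower genes were Acacb, an acetyl-CoA carboxylase (-0.90 ± 0.18), Thrsp (-0.70 ± 0.20) and Elovl6, an elongase (-0.62 ± 0.20). Fasn, the fatty acid synthase, had 3363, 1444 and 1923 CPM against 5614, 1470.2 and 4291 and did not pass (log2 ratio -0.49 ± 0.20 SE, adjusted p = 0.108). With scaling by total UMIs 8 of the 15 were lower, against 864 of all 7345 genes tested. With BA nuclei matched on UMIs 1 of the 15 was lower, against 358 of all 7330. Of 11 triglyceride synthesis genes 3 were higher and 3 lower, against 11.4% and 7.13% over all genes tested. With BA nuclei matched on UMIs 2 of the 11 were higher and 2 lower, against 592 and 358 of all 7330 genes tested. Gpam, the first acyltransferase of the pathway (0.94 ± 0.21), Pcx, pyruvate carboxylase (0.90 ± 0.18), and Dgat1, which adds the last fatty acid (0.87 ± 0.17), were higher, while Gpd1, which makes glycerol 3-phosphate, was lower (-0.98 ± 0.18).

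Of 14 lipid droplet and lipolysis genes 6 were higher, 2 were lower and 6 did not pass, with a median of 0.31. The shares over all genes tested were 11.4% higher and 7.13% lower. With total scaling 4 of the 14 were higher, against 691 of all 7345 genes tested. With BA nuclei matched on UMIs 4 were also higher, against 592 of all 7330. The sum of the list was above that of BA nuclei beyond counting error in the sham library (9755 against 6125 CPM). This was not so in the untreated (6329 against 5983) or the denervated library (5699 against 5444). Abhd5, the coactivator of triglyceride lipase, had 127, 297 and 176 CPM against 46.1, 146 and 61.0 (log2 ratio 1.43 ± 0.21 SE, adjusted p = 2.66e-05). Plin4, a droplet coat protein, had 547, 585 and 723 CPM against 318, 164 and 346 (log2 ratio 1.41 ± 0.20 SE, adjusted p = 3.02e-05). Its relative Plin5, which ties droplets to mitochondria, was lower (log2 ratio -1.37 ± 0.31 SE, adjusted p = 0.00286), as was Plin3 (-0.98 ± 0.22). Cavin1, needed for caveolae, was higher (0.87 ± 0.19). Of 9 fatty acid uptake genes, Slc27a1 (1.32 ± 0.18), Fabp4 (0.97 ± 0.18) and Lrp1 (1.53 ± 0.28) were higher, and Fabp3 (-1.34 ± 0.29) and Vldlr (-0.96 ± 0.23) were lower. Again 11.4% of all genes tested were higher and 7.13% lower.

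White adipocyte genes that the rule did not use were higher wherever they could be tested, though 9 of the 14 were too low for the test. All 5 tested were higher, against 11.4% of all genes tested, with a median of 1.35. Nrip1, a corepressor of BA genes, had 499.7, 401 and 523 CPM against 65.4, 116 and 70.7 (log2 ratio 2.65 ± 0.22 SE, adjusted p = 2.11e-08). Car3, a carbonic anhydrase abundant in white fat, had 7646, 13654 and 5891 CPM against 1067, 4149 and 1396 (log2 ratio 2.36 ± 0.21 SE, adjusted p = 6.85e-08). Npr3, the clearance receptor of natriuretic peptides, was at 1.35 ± 0.22 and Acvr1c, an activin receptor of adipocytes, at 0.77 ± 0.18. Lep, which encodes leptin, had 182, 75.6 and 125 CPM against 126, 27.5 and 131 (log2 ratio 0.81 ± 0.25 SE, adjusted p = 0.0279). In the denervated library its white-like value lay just below that of BA nuclei, and it lost its call under 6 of the alternatives, among them the scaling by total UMIs and the omission of the sham library. The study itself drew 7 genes for its white adipocytes from these samples, so that list is not independent evidence of its direction: all 7 were higher, Ghr, Car3 and Vcl among them, with a median of 2.33. Car3 is in both of these lists, so its count above is not independent either. Lists below share genes with them: Lep among the adipokines, Npr3, Acvr1c, Ghr and Tshr among the receptors and Slc1a3 among the amino acid genes. The thermogenic list also shares Prdm16, Ebf2 and Esrrg with the transcription factors and Adrb3 with the receptors.

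Secreted factors, transcription factors and receptors each held large rises. Of 10 adipokine genes tested, 6 were higher and 1 was lower, against 11.4% higher and 7.13% lower over all genes tested. Igf1, insulin-like growth factor 1, had 508, 602 and 259 CPM against 57.7, 94.7 and 87.4 (log2 ratio 2.63 ± 0.23 SE, adjusted p = 5.25e-08). Rarres2, which encodes chemerin (2.48 ± 0.30), Cfd, which encodes adipsin (1.91 ± 0.19), and Angptl4, an inhibitor of lipoprotein lipase (1.25 ± 0.22), were higher. Nampt, an enzyme of NAD synthesis, was lower (-0.65 ± 0.19) but lost its call with DESeq2.

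Among 24 transcription factor genes 8 were higher and 4 were lower, against 11.4% higher and 7.13% lower over all genes tested. Tbx15, a T-box factor of the trunk and limbs, had 135, 51.3 and 75.3 CPM against 16.2, 17.4 and 16.5 (log2 ratio 2.36 ± 0.34 SE, adjusted p = 2.96e-05). Zbtb16 was called higher (1.82 ± 0.37), but in the sham library it had 587 CPM in white-like and 624 in BA nuclei, and without the denervated library the call was lost. The 4 lower genes were Ebf2 (-0.62 ± 0.19), Prdm16, Esrra (-0.99 ± 0.20) and Esrrg, all factors of BA identity or mitochondrial genes. Cebpa (-0.28 ± 0.21), a general adipocyte factor, did not pass.

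Of 22 hormone and nutrient receptor genes 9 were higher and 5 were lower, against 11.4% higher and 7.13% lower over all genes tested. Ghr, the growth hormone receptor and one of the most abundant transcripts here, had 10073, 7070.2 and 16118 CPM against 1890.1, 2333 and 2817 (log2 ratio 2.33 ± 0.21 SE, adjusted p = 6.85e-08). Irs2, an insulin receptor substrate, had 190.4, 503 and 222 CPM against 26.0, 198 and 38.3 (log2 ratio 2.24 ± 0.25 SE, adjusted p = 1.10e-06), and Tshr, the thyrotropin receptor, was at 2.12 ± 0.19. Adrb1, the beta 1-adrenergic receptor, had 55.5, 12.8 and 25.1 CPM against 141, 45.0 and 108 (log2 ratio -1.60 ± 0.30 SE, adjusted p = 5.75e-04), opposite in direction to Adrb3. Kit, the stem cell factor receptor that the study followed in BAs (chromosome 5 from 75574916 to 75656722), had 103, 22.8 and 50.2 CPM against 319, 38.1 and 193 (log2 ratio -1.29 ± 0.26 SE, adjusted p = 0.00111). It was lower in white-like nuclei of every library, from 13, 16 and 12 UMIs. Amino acid genes gave 5 higher and 1 lower of 7 tested, against the same shares over all genes tested. The branched-chain aminotransferase Bcat2 (1.80 ± 0.19) and the glutamate carrier Slc1a3 (1.60 ± 0.22) were higher. Shmt1 of serine and glycine metabolism was lower (-1.89 ± 0.47) but lost its call with DESeq2.

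**Figure D4:**
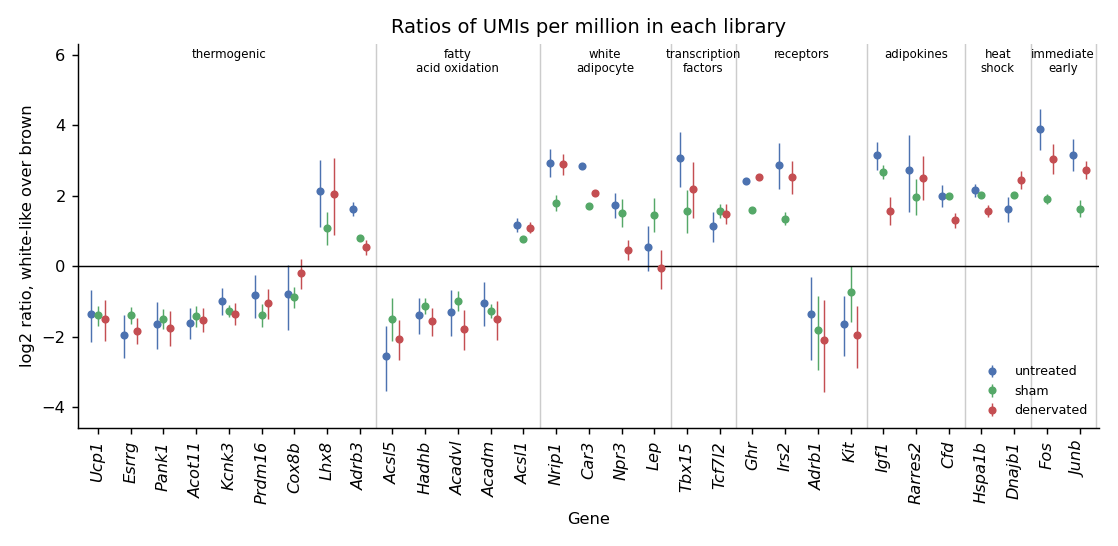
Log2 ratio of CPM in white-like over BA nuclei (y axis) for genes of the lists (x axis) in each library, with exact 95% intervals for counting error. Thermogenic and oxidation genes lie below 0 except Lhx8, Adrb3 and Acsl1, and Ghr, Igf1 and the stress genes lie above 0 in all 3 libraries.

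Heat shock and immediate early genes, which respond to stress and to tissue handling, were higher in the members too. All 7 of the 7 heat shock genes and all 7 immediate early genes passed the test, with medians of 1.91 and 1.94. Of all genes tested 11.4% were higher. The heat shock sum was 7305, 16748 and 10537 CPM in white-like nuclei of the untreated, sham and denervated libraries, and 2748, 4943 and 2968 in BA nuclei. Fos, a transcription factor switched on within minutes of a stimulus, had 262, 826 and 289 CPM against 17.6, 220.4 and 34.9 (log2 ratio 2.93 ± 0.27 SE, adjusted p = 9.65e-08). Endothelial nuclei had 4073, 7574 and 5334 CPM of the heat shock genes, below the members in every library. Their immediate early sums of 2143, 2315 and 4053 CPM stood against 2157, 5040.0 and 3349 CPM in the members, so only the sham members lay above them beyond counting error. These sums moved with the other differences between white-like and BA nuclei, and their part in them was not tested.

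Hspa1a and Hspa1b, near-identical copies of the inducible chaperone Hsp70, had log2 ratios of 1.94 ± 0.19 and 2.07 ± 0.18, and reads may have been split between them. Hspb1, a small heat shock protein, was at 1.81 ± 0.20. The sequences just upstream of these genes are shown because this list moved together. They are the 250 bases before the RefSeq start on GRCm38.p6, at chr17:34972157-34972406 on the minus strand, chr17:34959239-34959488 on the minus strand and chr5:135887669-135887918 on the plus strand, written 5′ to 3′ along the gene. Capitals mark GAANNTTC or TTCNNGAA, the paired units of the heat shock element, each of which reads the same on both strands.
Hspa1a: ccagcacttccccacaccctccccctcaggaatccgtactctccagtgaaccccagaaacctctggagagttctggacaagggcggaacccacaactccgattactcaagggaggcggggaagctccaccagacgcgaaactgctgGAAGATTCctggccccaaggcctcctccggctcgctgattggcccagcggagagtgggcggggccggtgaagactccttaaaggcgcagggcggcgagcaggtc
Hspa1b: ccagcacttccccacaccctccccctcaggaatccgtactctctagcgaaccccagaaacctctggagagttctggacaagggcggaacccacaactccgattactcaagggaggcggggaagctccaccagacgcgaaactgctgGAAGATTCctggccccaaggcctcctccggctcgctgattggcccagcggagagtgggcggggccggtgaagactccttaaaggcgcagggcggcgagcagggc
Hspb1: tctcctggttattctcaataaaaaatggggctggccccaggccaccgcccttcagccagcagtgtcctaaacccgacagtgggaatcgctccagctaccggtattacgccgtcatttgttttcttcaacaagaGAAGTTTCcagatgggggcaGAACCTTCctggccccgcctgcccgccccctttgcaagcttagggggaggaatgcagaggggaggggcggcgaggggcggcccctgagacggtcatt
Such letters occurred upstream of 4 of the 5 heat shock genes with a sequence, of 14.6% of all 27018 genes and in 12.8% of all 32841 sequences of this length. They start 104 bases before the start of Hspa1a and of Hspa1b, and 117 and 97 bases before that of Hspb1. Hsph1, whose sequence is not shown, also had a match. Dnajb1 had none at either of its starts, and no sequence was used for Hsp90aa1 and Hspa8. A match is a description of the letters. The search was chosen after the gene values had been seen.

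White-like nuclei of the denervated library were then set against those of both other libraries. With 1 library per condition no test was possible, and a gene was counted when its CPM differed by at least 2-fold from both other libraries in the same direction with both 95% intervals of the ratio off 1. Of 7368 genes with at least 20 UMIs over the 3 white-like sums, 151 were higher in the denervated nuclei (2.05%) and 100 were lower (1.36%). Over all these genes the median log2 ratio was -0.05 against untreated and -0.03 against sham. Of the 151, 33 passed the same rule in BA nuclei, where 64 of the 7368 genes passed it. Of the 100, 5 passed it in BA nuclei, where 18 of the 7368 did.

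Ptx3, which encodes the acute-phase protein pentraxin 3, ranked first by the smaller of its 2 log2 ratios, which rests on the floor given below. It had 0, 4 and 109 UMIs in white-like nuclei of the untreated, sham and denervated libraries, or 0, 5.70 and 456 CPM, and 0.379, 0.471 and 13.8 CPM in BA nuclei. Against sham the log2 ratio was 6.32 (4.92 to 8.22), and against the 0 of the untreated sum it was 4.26 computed with a floor of 3 UMIs, while the exact interval of that ratio began at 3.94. Ptx3 was found in 0 of 73, 2 of 425 and 40 of 190 members. Cxcl1 had 39.7, 57.0 and 1062 CPM in white-like nuclei, 0.379, 4.47 and 37.2 in BA nuclei and 2.74, 11.7 and 67.0 in endothelial nuclei. Its log2 ratio in white-like nuclei was 4.74 (3.502 to 6.38) against untreated and 4.22 (3.73 to 4.74) against sham, and 6.61 (5.04 to 8.91) and 3.05 (2.37 to 3.82) in BA nuclei. It was found in 4 of 73, 20 of 425 and 65 of 190 members, with at most 19 UMIs in a nucleus, so the denervated value did not rest on a single nucleus.

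Chl1, an adhesion molecule of the nervous system, had 15.9, 8.55 and 268 CPM in white-like nuclei and 5.31, 6.12 and 14.7 in BA nuclei, with log2 ratios of 4.08 (2.16 to 7.15) and 4.97 (3.77 to 6.47) against untreated and sham. Il17ra, a receptor subunit for interleukin 17, had 15.9, 14.3 and 192 CPM in white-like nuclei, and its ratios in BA nuclei were -0.16 (-0.69 to 0.36) and 0.35 (-0.31 to 1.02). Gcnt2, which branches glycans, had 15.9, 11.4 and 176 CPM in white-like and 6.83, 6.59 and 16.5 in BA nuclei, and pericyte nuclei had more in every library, at 262, 246 and 226.8 CPM. The untreated values of these 3 genes rest on 2 UMIs each.

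Further genes of inflammation among the 151 are named here after their values were seen, and the 151 were not tallied by function. Nfkbia, the inhibitor that NF-kB itself induces, had 246, 134 and 1652 CPM in white-like nuclei and 114, 79.4 and 139.5 in BA nuclei, with log2 ratios of 2.75 (2.22 to 3.32) and 3.62 (3.30 to 3.96). It was found in 18 of 73, 66 of 425 and 101 of 190 members. Irf1, a transcription factor of interferon responses, had 381, 231 and 1275 CPM against 47.4, 51.6 and 73.4 in BA nuclei, and Tnfaip3, a brake on NF-kB, had 23.8, 11.4 and 201 against 2.28, 6.59 and 9.41. The chemokines Ccl2 and Ccl7 had 0, 1.43 and 100.3 and 0, 4.28 and 213 CPM in white-like nuclei.

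Casp4, an inflammatory caspase, had 95.2, 54.2 and 426 CPM, Il1r1, the receptor of interleukin 1, 71.4, 38.5 and 297 (207.5, 196 and 226.8 in pericyte nuclei), Birc3, an inhibitor of apoptosis, 159, 89.8 and 514, and Tnfaip6, a hyaluronan-binding protein, 0, 21.4 and 222. Saa3, an acute-phase apolipoprotein, had 7.93, 11.4 and 71.1 CPM in white-like, 0.506, 0.471 and 25.01 in BA and 0.305, 0.343 and 40.5 in endothelial nuclei. The 8 immune marker genes summed to 39.7, 34.2 and 66.9 CPM in the same white-like sums, the pericyte and smooth muscle genes outside the rule to 135, 221 and 247 CPM and the fibroblast and progenitor genes to 127, 175 and 234 CPM, and their part in these values was not tested.

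**Figure D5:**
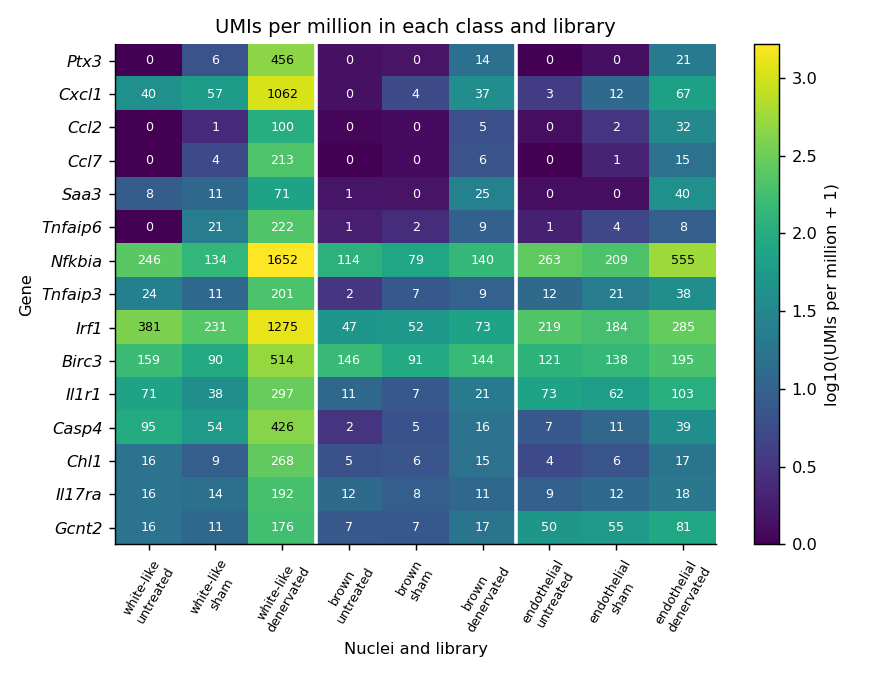
CPM (printed in each cell, colour on the scale of log10 of CPM plus 1) of 15 genes (y axis) in white-like, BA and endothelial nuclei of each library (x axis); the genes were chosen for their rise in denervated white-like nuclei. The denervated white-like column is the highest of all 9 for every gene shown, such as Cxcl1 at 1062 and Nfkbia at 1652 CPM.

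The upstream sequences of Cxcl1, Nfkbia and Tnfaip3 are shown as those with a match among the named genes, which are textbook targets of NF-kB. Casp4 also had a match, while Ptx3, Irf1, Birc3, Saa3, Tnfaip6, Il1r1, Chl1, Gcnt2 and another start of Tnfaip3 had none, and no sequence was used for Ccl2, Ccl7 and Il17ra. They are 250 bases from RefSeq on GRCm38.p6, at chr5:90890995-90891244 on the plus strand, chr12:55492648-55492897 on the minus strand and chr10:19015411-19015660 on the minus strand, written 5′ to 3′ along the gene. Capitals mark 1 form of the kappa B letters, GGG, any 2 bases and TTTCC, on either strand. Other forms of the site were not searched, so a gene without a match here may still hold a site.
Cxcl1: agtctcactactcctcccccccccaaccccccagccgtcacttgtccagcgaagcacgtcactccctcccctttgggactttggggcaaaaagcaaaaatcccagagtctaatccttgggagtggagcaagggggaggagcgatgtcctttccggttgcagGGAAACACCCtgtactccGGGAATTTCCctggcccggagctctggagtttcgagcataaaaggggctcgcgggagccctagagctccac
Nfkbia: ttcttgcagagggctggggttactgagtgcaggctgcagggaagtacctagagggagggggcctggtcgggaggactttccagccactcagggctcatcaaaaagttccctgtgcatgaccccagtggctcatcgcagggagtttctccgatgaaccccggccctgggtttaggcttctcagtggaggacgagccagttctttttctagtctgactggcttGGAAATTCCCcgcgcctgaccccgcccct
Tnfaip3: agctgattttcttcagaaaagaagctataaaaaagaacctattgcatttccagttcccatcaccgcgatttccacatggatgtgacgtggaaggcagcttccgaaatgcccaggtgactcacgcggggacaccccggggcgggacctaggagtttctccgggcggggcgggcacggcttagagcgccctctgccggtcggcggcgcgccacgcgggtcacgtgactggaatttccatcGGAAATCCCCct
These letters stood upstream of 8 of the 114 genes higher in denervated white-like nuclei that had a sequence (7.02%), of 2 of 76 lower genes (2.63%) and of 447 of all 27018 genes (1.65%), which is 1.41% of the 32841 sequences of this length. In Cxcl1 they start 89 and 71 bases before the gene's start, in Nfkbia 29 and in Tnfaip3 12. The match says only that the letters are there, and they were chosen after the values had been seen.

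The 5 largest decreases in denervated white-like nuclei were in Lyrm1, Rybp, Kif3b, Gpr89 and Gm16124, each with a single UMI in the denervated sum. Lyrm1, a small protein of the LYR family, had 47.6, 47.0 and 4.18 CPM in white-like nuclei and 34.0, 36.0 and 38.3 in BA nuclei, with log2 ratios of -3.51 (-9.03 to -0.47) against untreated and -3.49 (-8.84 to -0.91) against sham. Rybp, of a Polycomb complex, had 63.5, 44.2 and 4.18 CPM and Kif3b, a kinesin motor, 47.6, 41.3 and 4.18. The upper bounds of these 5 genes' log2 ratios against untreated lay between -1.02 and -0.09. Otop1, a proton channel of the thermogenic list, also met the rule, with 47.6, 38.5 and 4.18 CPM in white-like nuclei and 93.2, 86.9 and 69.3 in BA nuclei.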

How the data were processed

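Whole-number UMI counts for each gene in each barcode, not normalized, are what the authors deposited. For the untreated and denervated tables the file headers name the BD Rhapsody pipeline, version 1.9-nuclei, with GRCm38 and GENCODE vM19. No header accompanies the sham library. Barcodes numbered 13707, 15368 and 15822 (untreated, sham, denervated), with 14971579, 14725864 and 9420030 UMIs. The submitters' processing notes name Seurat 4.0.6. Doublet nuclei were gated out in the study's sort.

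A nucleus entered with 200 or more genes detected and no more than 50% of its UMIs mitochondrial. The members and the gene lists were chosen with earlier results of these data known. UMIs were summed by library and class, without the 19 genes of the rule, and tested with edgeR 4.0.16 in R 4.3.3 (TMM, quasi-likelihood, library as block, mean CPM of at least 20, Benjamini-Hochberg adjusted p under 0.05). The 95% intervals were exact (Poisson, Clopper-Pearson or, for ratios, conditional binomial) and cover counting error only. On simulated sums of the class comparison, 100% of genes changed by 2 on the log2 scale, 65.2% of those changed by -1 and 75.5% of those changed by 1 were called, among 6981 genes. The simulation gave all genes the same fixed spread and each changed gene the same change in every library, with few genes changed. Recovery in the data themselves was not tested.

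Named are the 10 largest and 10 smallest ratios with 1 direction in all libraries, up to 4 genes of a list by size, genes the study names, and the 5 largest changes each way with denervation. Other genes are named for contrast, after their values were seen, and a few genes that meet the rule are not reported here. Alternatives were other filters on nuclei and genes, total scaling, DESeq2 1.42.0, no library term, each library left out, and BA nuclei matched on UMIs. A reference without vessel limits was added after seeing the data. Sums and intervals used Python 3.11.15 (numpy 2.4.6, scipy 1.17.1, pandas 2.3.3).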

Additional observations from a re-analysis of the deposited data

Results flagged for a closer look

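A difference between libraries drew attention in each result below: the 95% intervals for counting error lay on opposite sides of 0 in different libraries or classes. With 1 library per condition the difference itself was not tested.

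These genes were picked for their opposite signs and do not speak for the lists they come from. The log2 ratio of white-like over BA nuclei for Me1, malic enzyme, was 0.41 in the untreated, 0.72 in the sham and -0.69 in the denervated library. Srebf1, a regulator of lipid synthesis, was at 0.58 in sham and -0.43 in denervated nuclei, and Pck1 of glyceroneogenesis at 0.72 and -0.63. The lipases Pnpla2 and Lipe were at -0.57 and -0.27 in the untreated, 0.18 and 0.59 in the sham and -0.43 and -0.58 in the denervated library. Bscl2, which encodes seipin, was at 0.30 in sham and -0.93 in denervated nuclei. Ptger3, a prostaglandin E2 receptor, was at 1.24 in sham and -1.58 in denervated nuclei.

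Ebf1, a transcription factor of adipocytes, was at 0.41, -0.11 and 0.67 in the untreated, sham and denervated libraries, and Thrb, a thyroid hormone receptor, was at -0.35 in sham and 0.36 in denervated nuclei.

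For 2 genes the denervated library differed from the others in opposite directions in the classes. The log2 ratio of denervated Bscl2 was -0.92 against untreated and -1.07 against sham in white-like nuclei, and 0.20 and 0.16 in BA nuclei. For Nrg4, a secreted factor of BAs, it was -0.64 against both in white-like nuclei, and 0.15 and 0.073 in BA nuclei.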

How the results depend on the processing

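With at least 3 marker UMIs the share of white-like nuclei was 1.17%, 6.83% and 2.71% (untreated, sham, denervated), with UMIs of at least 2 marker genes 1.09%, 7.04% and 2.57%, and with no vessel UMI 10.1% in the sham library. The genes higher in white-like nuclei numbered 282 without the library term and 535 to 800 with a library left out, lowest without the denervated one. The lower genes numbered 864 with total scaling, 294 with DESeq2, 63 without the library term and 254 to 507 with a library left out, again lowest without the denervated one. The thermogenic median was -1.06 with total scaling, -1.24 with at least 3 marker UMIs, -1.21 with UMIs of at least 2 marker genes, and -0.99 to -0.76 with a library left out. Fewer samples remain in the last case, and the cause of the other shifts was not tested. Ucp1 stayed lower and past the threshold under every alternative, between -1.70 and -1.06, and the 4 markers left out in turn stayed higher. The classes were paired by library in the test itself. No paired analysis was possible because the conditions have 1 library each. Values from under 10 UMIs, frequent in the untreated library, are imprecise, and members are few there.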
